A study of Homo sapiens with 5 samples.

Results

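The Polo-like kinases are serine/threonine kinases with a carboxy-terminal polo-box region that docks them to their substrates. The mRNAs of 4 members, PLK1, PLK2, PLK3 and PLK4, were taken by gene symbol from the table of 26485 genes counted in RPE1 cells, an established human retinal pigment epithelial line. All 4 were among the 14187 genes that passed the filter on low counts. The cells, labelled as wild type, were treated for 18 h with DMSO (2 libraries), with 0.2 μM doxorubicin (2 libraries) or with 0.34 μM doxorubicin (1 library), where the drug was dissolved in DMSO. Doxorubicin intercalates into DNA and poisons topoisomerase II, and the comparison asked how the cells responded to it. The concentrations are those of the sample labels, while the treatment protocol gives 200 and 340 μM. The counts on genes summed to between 23773061 and 36725345 per library. The RNA comes from unsorted bulk culture of 1 cell line, and 0.34 μM is represented by 1 library only.

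Of 8 retinal pigment epithelium markers, MITF (30.4 to 55.7 CPM, counts scaled to 1000000 per library) and OTX2 (23.5 to 29.8 CPM) were detected in every library. BEST1, a chloride channel, lay between 0.572 and 3.87 CPM and the pigment gene PMEL between 0.204 and 1.35 CPM. The other 4, RPE65, RLBP1, TYR and TTR, lay between 0 and 0.299 CPM in all libraries. Epithelial keratins KRT8 and KRT18 and the mesenchymal genes VIM and FN1 were abundant, and of 6 markers of other cells PTPRC alone exceeded 1 CPM in any library, at up to 2.23 CPM. The summed level of these 6 markers was between 0.337 and 0.613 CPM in DMSO and between 1.39 and 3.03 CPM after doxorubicin, and its part in the results below was not tested.

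PLK1 drives entry into mitosis, centrosome maturation, spindle assembly and cytokinesis, and its mRNA accumulates in G2 and mitosis. PLK4 is the kinase that starts the duplication of centrioles, and it is likewise a gene of proliferating cells. PLK2 and PLK3 were first known as genes induced by serum or growth factors, respond to DNA damage and other stress, and are both described as targets of p53. The mitotic members were therefore set against the stress-induced members.

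On GRCh38.p14, PLK1 lies on chromosome 16 (23678889 to 23690367) and overlaps ERN2 by 58 bases, a gene that had at most 1 count in any library. PLK4 lies on chromosome 4 (127880893 to 127899224) and holds the small RNA pseudogene RNU6-583P inside it. PLK2 lies on chromosome 5 (58453982 to 58460086) and overlaps no other annotated gene. PLK3 lies on chromosome 1 (44800377 to 44805990) and overlaps DYNLT4, counted as TCTEX1D4, by 98 bases. TCTEX1D4 had 6 and 18 counts in DMSO and 95, 108 and 135 after doxorubicin, so that it moved in the direction of PLK3 at far lower counts, and the share of reads common to both genes was not tested.

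The 250 bases upstream of the outermost annotated start of each gene are shown because the members differ in the regulatory motifs they hold (RefSeq, GRCh38.p14). Capitals mark the CHR (cell cycle genes homology region, TTTGAA or TTCGAA), the CCAAT box (CCAAT), the core of the cAMP response element (TGACG) and the p53 decamer consensus, each searched on both strands. The motifs do not overlap in these windows.
PLK1, chr16:23678639-23678888, plus strand: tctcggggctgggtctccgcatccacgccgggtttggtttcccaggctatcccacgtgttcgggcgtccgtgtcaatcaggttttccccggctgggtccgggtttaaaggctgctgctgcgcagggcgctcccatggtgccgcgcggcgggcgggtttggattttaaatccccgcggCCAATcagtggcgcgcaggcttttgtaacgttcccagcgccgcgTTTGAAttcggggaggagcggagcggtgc
PLK4, chr4:127880643-127880892, plus strand: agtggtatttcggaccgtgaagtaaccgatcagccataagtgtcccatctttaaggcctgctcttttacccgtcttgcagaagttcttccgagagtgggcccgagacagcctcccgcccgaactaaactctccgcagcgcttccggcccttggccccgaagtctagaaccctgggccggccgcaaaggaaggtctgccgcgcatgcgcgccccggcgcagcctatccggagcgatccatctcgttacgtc
PLK2, chr5:58460087-58460336, minus strand: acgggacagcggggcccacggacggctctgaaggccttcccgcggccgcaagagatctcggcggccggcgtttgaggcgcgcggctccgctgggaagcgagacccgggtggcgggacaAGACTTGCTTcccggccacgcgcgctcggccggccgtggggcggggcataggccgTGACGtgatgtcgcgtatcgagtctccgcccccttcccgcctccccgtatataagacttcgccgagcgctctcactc
PLK3, chr1:44800127-44800376, plus strand: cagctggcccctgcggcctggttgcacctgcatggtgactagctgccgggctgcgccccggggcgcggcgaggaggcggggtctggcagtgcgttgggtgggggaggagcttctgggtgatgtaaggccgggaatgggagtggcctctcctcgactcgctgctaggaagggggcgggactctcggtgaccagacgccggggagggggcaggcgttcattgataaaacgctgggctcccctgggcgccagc

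The PLK1 promoter held a CHR that began 29 bases upstream of the start and a CCAAT box 73 bases upstream. PLK4 had the same CHR letters on the opposite strand, from 39 bases into the transcript, and a cAMP response element core across the start, neither of which falls wholly in the stretch printed. A CCAAT box lay 86 bases upstream of the last of its 3 annotated starts. A CHR was found in 16.4% of 35116 RefSeq promoter windows of 300 bases, a CCAAT box in 34.6% and a cAMP response element core in 24.6%. PLK2 held a p53 decamer 132 bases upstream, a motif found in 6.63% of windows, and a cAMP response element core 77 bases upstream. None of the motifs searched was in the PLK3 window. These matches describe letters and are not shown to be bound sites.

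In DMSO the members differed widely in level when compared per kilobase of exon (TMM-normalized CPM per kb, which sets genes of unequal length on 1 scale). PLK2 was highest at 208 ± 80.1 (SD, n = 2), followed by PLK1 at 41.8 ± 2.68, PLK4 at 9.74 ± 1.10 and PLK3 at 6.23 ± 0.346. The order was the same in both DMSO libraries, with PLK4 at 8.96 and 10.5 above PLK3 at 5.99 and 6.48. After doxorubicin PLK2 remained highest at 280 ± 25.4 (SD, n = 3) and PLK3 came next at 27.8 ± 3.27. PLK4 at 0.956 ± 0.368 and PLK1 at 0.902 ± 0.0858 did not differ beyond their spread. Among 12939 tested genes with a known exon length, PLK1 thus moved from the 93.9 percentile to the 21.9 percentile and PLK4 from 71.0 to 22.6. PLK3 moved from 59.6 to 90.3, while PLK2 was at 99.3 and then at 99.5.

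PLK1 and PLK4 fell and PLK3 rose after doxorubicin, so that 3 of 4 members passed the threshold of an adjusted p-value of 0.01 in edgeR's quasi-likelihood test of all 3 doxorubicin libraries against DMSO. Of all genes tested, 4.02% passed it, 1.29% as higher and 2.73% as lower after doxorubicin. The doxorubicin and DMSO libraries did not overlap for PLK1, PLK3 and PLK4, and overlapped for PLK2. Of all genes tested, 47.7% did not overlap, 24.3% as higher and 23.4% as lower after doxorubicin.

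**Figure D1:**
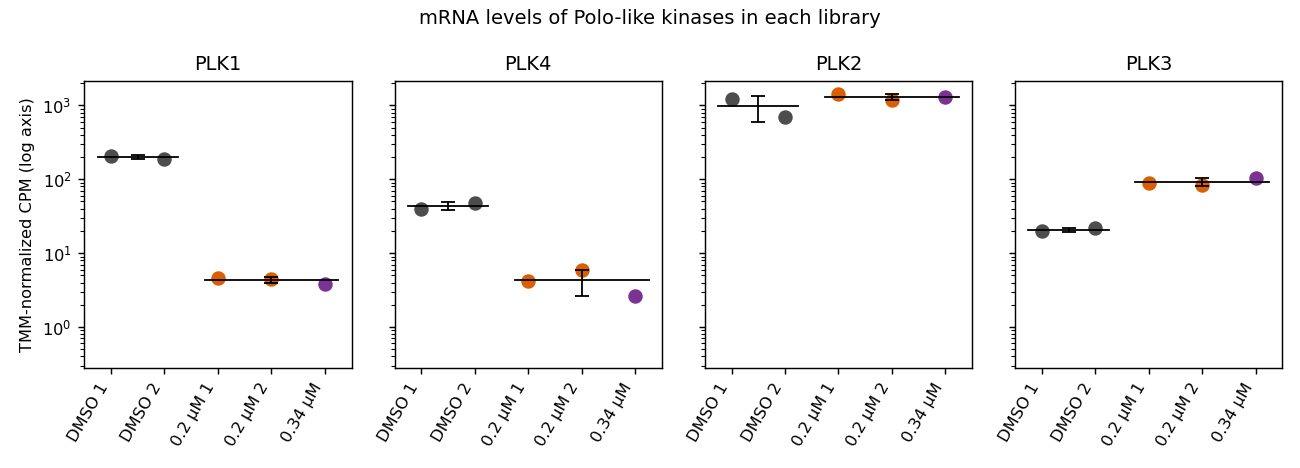
TMM-normalized CPM (log axis) of each Polo-like kinase in each library (DMSO grey, 0.2 μM doxorubicin orange, 0.34 μM doxorubicin purple). Horizontal lines are means of the DMSO and of the pooled doxorubicin libraries and bars are SD. PLK1 drops from 208 and 190 to between 3.83 and 4.60, PLK4 drops from 40.1 and 47.1 to between 2.65 and 5.95, PLK3 climbs from 19.9 and 21.5 to between 83.7 and 105, and the PLK2 groups overlap.

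PLK1 had 5447 and 4845 counts in the DMSO libraries, 119 and 107 at 0.2 μM and 139 at 0.34 μM. These counts correspond to 208 and 190 CPM in DMSO and to 4.60, 4.45 and 3.83 CPM after doxorubicin. Every treated library was thus far below every control library, with little spread within either group. The mean was 199 ± 12.7 CPM in DMSO (SD, n = 2) and 46.3-fold lower after doxorubicin, at 4.29 ± 0.408 CPM (SD, n = 3). The log2 fold change of -5.53 (standard error 0.16, 95% interval -5.93 to -5.14, adjusted p = 0.000136 from edgeR) was the largest fall and had the smallest p of the 14187 genes tested. The adjusted p of edgeR ranged from 0.00145 to 0.00501 when any 1 library was omitted. In bulk RNA, fewer cells that express PLK1 and less PLK1 mRNA per cell cannot be told apart, and this holds for all members. The study also sorted its counts of cells by cell cycle stage, and reports a significantly larger share in G2 or mitosis after doxorubicin. The part of cell cycle stage in the fall of PLK1 mRNA was not tested.

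PLK4 had 1052 and 1202 counts in DMSO, 110 and 143 at 0.2 μM and 96 at 0.34 μM. In CPM these were 40.1 and 47.1 in DMSO and 4.25, 5.95 and 2.65 after doxorubicin. The groups did not overlap, and the treated libraries spread more in proportion to their mean than those of PLK1. The mean of PLK4 was 43.6 ± 4.91 CPM in DMSO (SD, n = 2) and 10.2-fold lower after doxorubicin, at 4.28 ± 1.65 CPM (SD, n = 3). This gave a log2 fold change of -3.36 (standard error 0.33, 95% interval -4.14 to -2.57, adjusted p = 0.00211 from edgeR). The call was lost without DMSO replicate 1 (log2 fold change -3.48, adjusted p = 0.0120 from edgeR) and without DMSO replicate 2 (-3.26, adjusted p = 0.0195 from edgeR).

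The estimated fall was larger for PLK1 than for PLK4. Per kilobase PLK1 was 4.87 and 3.79 times as high as PLK4 in the DMSO libraries, and 1.02 and 0.704 times at 0.2 μM and 1.36 times at 0.34 μM. The 95% intervals of the 2 log2 fold changes did not overlap, and the difference between the genes was not tested.

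PLK3 rose. It had 522 and 550 counts in DMSO, 2297 and 2013 at 0.2 μM and 3795 at 0.34 μM, the deepest library. In CPM it stood at 19.9 and 21.5 in DMSO and at 88.8, 83.7 and 105 after doxorubicin. The lowest treated library was well above the highest control library. The mean was 20.7 ± 1.15 CPM in DMSO (SD, n = 2) and 4.46-fold higher after doxorubicin, at 92.4 ± 10.9 CPM (SD, n = 3). The log2 fold change was 2.16 (standard error 0.17, 95% interval 1.75 to 2.56, adjusted p = 0.00115 from edgeR). In size this was number 67 of the 183 called rises by log2 fold change. The call was lost without DMSO replicate 1 (log2 fold change 2.09, adjusted p = 0.0103 from edgeR) and without DMSO replicate 2 (2.20, adjusted p = 0.0140 from edgeR).

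PLK2 did not pass the threshold. It had 32237 and 17962 counts in DMSO, 36773 and 28536 at 0.2 μM and 47121 at 0.34 μM. In CPM these were 1230 and 704 in DMSO and 1422, 1186 and 1298 after doxorubicin. DMSO replicate 1 lay within the range of the treated libraries and DMSO replicate 2 lay below all of them. The means were 967 ± 372 CPM (SD, n = 2) and 1302 ± 118 (SD, n = 3), and the log2 fold change was 0.43 (standard error 0.26, 95% interval -0.19 to 1.05, adjusted p = 0.312 from edgeR). The DMSO libraries decided this value. It was 0.88 without DMSO replicate 1 (adjusted p = 0.0427 from edgeR) and 0.07 without DMSO replicate 2 (adjusted p = 0.825 from edgeR), and neither passed the threshold.

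The same replicates differed in the immediate early genes, which are induced within minutes by serum or stress. Their summed level over a list of 16 genes was 1562 CPM in DMSO replicate 1 and 527 CPM in DMSO replicate 2. It was 1277 and 452 CPM in replicates 1 and 2 of 0.2 μM and 938 CPM at 0.34 μM. FOS, a subunit of the AP-1 factor, had 118 and 1.18 CPM in DMSO, 127 and 0.291 CPM at 0.2 μM and 50.3 CPM at 0.34 μM. EGR1, a serum-induced zinc finger factor, had 355 and 4.27 CPM, 232 and 1.83 CPM, and 172 CPM in the same order. PLK2 was higher in replicate 1 than in replicate 2, 1.75-fold in DMSO and 1.20-fold at 0.2 μM, while for PLK3 the ratios were 0.924 and 1.06. The part of this difference between libraries in the level of PLK2 was not tested.

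**Figure D2:**
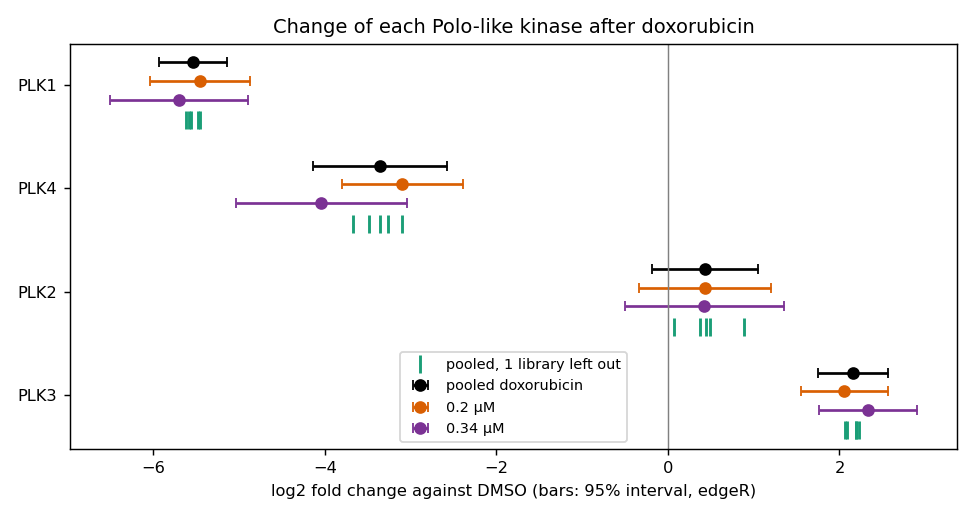
Log2 fold change against DMSO of each Polo-like kinase for the pooled doxorubicin libraries (black), 0.2 μM (orange) and 0.34 μM (purple), with 95% intervals from edgeR. Green ticks are the pooled change with 1 library left out. PLK1 and PLK4 lie left of 0 and PLK3 lies right of 0 in every fit, while the interval of PLK2 spans 0 and its ticks run from 0.07 to 0.88.

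The ratio of each stress-induced to each mitotic member was higher in every doxorubicin library than in every DMSO library. Per kilobase, PLK3 was at 0.137 and 0.162 times the level of PLK1 in the DMSO libraries. At 0.2 μM it was at 27.6 and 26.9 times the level of PLK1, and at 0.34 μM at 39.1 times. The order of these members was therefore opposite in treated and control libraries. PLK3 also crossed PLK4, from 0.668 and 0.616 times its level in DMSO to 28.1 and 19.0 times at 0.2 μM and 53.2 times at 0.34 μM. PLK2 exceeded PLK1 6.06-fold and 3.80-fold in DMSO, and 317-fold, 273-fold and 347-fold after doxorubicin. Here PLK2 itself had a log2 fold change of 0.43, which did not pass, beside -5.53 for PLK1. The mean log2 ratio of PLK2 to PLK4 was higher by 3.88 after doxorubicin, going from 4.36 ± 0.732 (SD, n = 2) to 8.24 ± 0.647 (SD, n = 3). These ratios describe chosen members and carry no test.

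**Figure D3:**
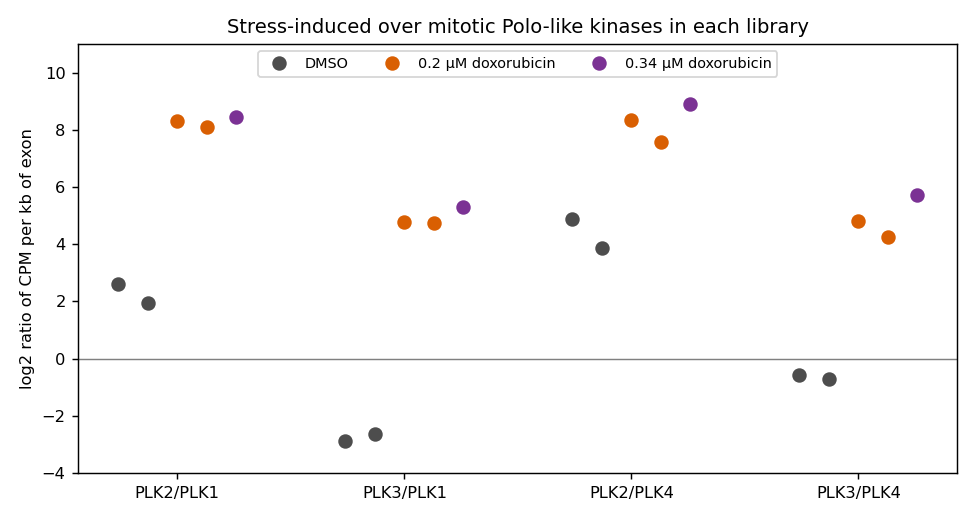
Log2 ratio of each stress-induced member to each mitotic member, in CPM per kb of exon, for each library (DMSO grey, 0.2 μM orange, 0.34 μM purple). The ratios of PLK3 to PLK1 and to PLK4 lie below 0 in both DMSO libraries and well above 0 in all doxorubicin libraries, and the ratios of PLK2 lie above 0 throughout.

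Of the summed level of the 4 members per kilobase, PLK2 made up 81.9% and 72.7% in the DMSO libraries and between 89.5% and 91.4% after doxorubicin. Among the remaining members PLK1 made up 74.5% and 70.1% in DMSO and between 2.45% and 3.41% after doxorubicin. PLK3 made up 10.2% and 11.4% of them in DMSO and between 91.7% and 95.7% after doxorubicin. The sum of PLK1, PLK3 and PLK4 was 58.6 and 56.9 in DMSO and 28.6, 27.4 and 32.8 CPM per kb after doxorubicin, a description without a test.

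PLK5, a family member that in human encodes a protein lacking an intact kinase domain, is not among the 4 and was close to the detection limit. It had 17 and 0 counts in DMSO, 20 and 1 at 0.2 μM and 35 at 0.34 μM. It was thus counted mainly in the libraries that were also high in FOS and EGR1, at both treatments.

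Both concentrations gave changes against the same DMSO libraries, and their values are set side by side. The log2 fold change of PLK1 was -5.46 at 0.2 μM and -5.70 at 0.34 μM. That of PLK4 was -3.10 and -4.04, that of PLK3 was 2.06 and 2.33, and that of PLK2 was 0.43 and 0.43. PLK1, PLK3 and PLK4 passed the threshold of edgeR at each concentration, although the spread at 0.34 μM is taken from the DMSO and 0.2 μM pairs. Of all genes tested, 1.21% passed at 0.2 μM and 0.627% at 0.34 μM.

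Between 0.34 μM and 0.2 μM none of the members passed the threshold of edgeR, nor did any gene (0%). At an unadjusted p under 0.05 edgeR listed 22 of 14187 genes (0.155%), and PLK4 was among them. With DESeq2 the numbers were 0 adjusted and 33 unadjusted. PLK4 had 4.25 and 5.95 CPM at 0.2 μM and 2.65 CPM at 0.34 μM, a log2 difference of -0.94 (standard error 0.37, 95% interval -1.81 to -0.08, unadjusted p = 0.0363 and adjusted p = 0.9998 from edgeR). The difference was -1.14 without replicate 1 of 0.2 μM and -0.68 without replicate 2. The differences were -0.24 for PLK1 (95% interval -0.87 to 0.39), 0.28 for PLK3 (-0.31 to 0.86) and -0.01 for PLK2 (-0.94 to 0.93). The direction of PLK2 turned without replicate 1 of 0.2 μM (0.16). The interval of PLK2 was the widest of the 4.

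Next, the genes that work with each member were examined. Of 24 partners, activators and substrates of PLK1, 20 passed the threshold of edgeR, all as lower (2.73% of all genes tested did). The median log2 fold change was -3.13, against 0.01 over all genes tested. BORA, the cofactor through which Aurora A activates PLK1, fell, with 13.3 ± 2.44 CPM in DMSO (SD, n = 2) and 1.89 ± 0.189 CPM after doxorubicin (SD, n = 3). AURKA, which encodes Aurora A, fell with a log2 fold change of -3.66, CDC25C, a phosphatase that activates CDK1, with one of -3.82, and the spindle checkpoint kinase BUB1B with one of -3.98. The largest fall of the list was that of KIF20A (-5.52), a kinesin of the central spindle that docks PLK1. The count was lower with either DMSO library left out, which leaves 1 control library, and so was that of called falls over all genes. NEDD1, KIZ, PKMYT1 and CENPU did not pass, named after their values were seen, with log2 fold changes of -0.61, -0.03, -1.91 and -2.38.

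Of 17 genes of centriole duplication around PLK4, 9 passed, all as lower (2.73% of all genes tested did), with a median of -1.11. STIL, which binds and activates PLK4, had the largest fall, with 44.1 and 47.3 CPM in DMSO and 4.79, 5.53 and 3.14 CPM after doxorubicin. Its log2 fold change was -3.35, beside -3.36 for PLK4. SASS6, the cartwheel protein that assembles with it, fell with a log2 fold change of -1.96 and CEP152, a scaffold that recruits PLK4 to the centriole, with one of -1.84. CEP192, the other scaffold, lay just outside the threshold (-1.31, adjusted p = 0.0108 from edgeR). The ubiquitin ligase subunits that mark PLK4 for degradation, BTRC and FBXW11, had log2 fold changes of -0.08 and 0.07 and did not pass. With either DMSO library left out, which leaves 1 control library, the count was lower, as was that of called falls over all genes. The count was 2 with replicate 1 or 2 of 0.2 μM or the 0.34 μM library left out. In the same order, these fits called 136 of 13957, 146 of 13989 and 140 of 13891 genes tested as lower.

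Of 12 partners and substrates of PLK2 and PLK3, 2 passed, both as lower (2.73% of all genes tested did), with a median of -0.32. These were CHEK2, the checkpoint kinase (-1.41), and CDC25C, which is also in the PLK1 list. CIB1, a calcium-binding partner, had a log2 fold change of 0.33 and did not pass. The count was 1 with replicate 1 or 2 of 0.2 μM or the 0.34 μM library left out. In the same order, these fits called 136 of 13957, 146 of 13989 and 140 of 13891 genes tested as lower. With either DMSO library left out, which leaves 1 control library, both the list count and the called falls over all genes were also lower.

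The p53 targets, the class to which PLK2 and PLK3 are assigned, were higher after doxorubicin. Of 24 targets, 17 passed, all as higher (1.29% of all genes tested did), with a median of 1.92. The 2.16 of PLK3 lay near this median, while the 0.43 of PLK2 lay below every member of the list. SESN1, a stress-induced inhibitor of mTOR signaling, had a log2 fold change of 2.33, the antiproliferative gene BTG2 one of 3.53, TP53INP1 one of 2.27 and PHLDA3, an inhibitor of AKT, one of 1.54. The largest rise was that of FDXR (3.75), a mitochondrial reductase. With either DMSO library left out, which leaves 1 control library, the count was lower, as was that of called rises over all genes. Leaving out a doxorubicin library gave 14 or 9 at 0.2 μM (replicate 1 or replicate 2) and 10 at 0.34 μM. In the same order, these fits called 71 of 13957, 37 of 13989 and 38 of 13891 genes tested as higher.

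Of the 16 immediate early genes, 0 passed in edgeR, where 4.02% of all genes tested did. In edgeR 3 had an unadjusted p under 0.05 (2 higher and 1 lower), a level at which all genes were not counted. DESeq2 called 3, likewise 2 higher and 1 lower, where it called 14.1% of all genes it tested, and limma voom called 0. The median log2 fold change was 0.00. FOS, EGR1 and KLF6 had log2 fold changes of -0.01, -0.41 and -0.69. ATF3, a stress-induced factor, had 3.89 and 1.25 CPM in DMSO and 13.4, 15.3 and 12.8 CPM after doxorubicin (log2 fold change 2.42, adjusted p = 0.0200 from edgeR). EGR3, named after its values were seen, had 1.41 to 1.95 CPM in DMSO and 0.249 to 0.387 CPM after doxorubicin (log2 fold change -2.36, adjusted p = 0.0144 from edgeR). The edgeR count stayed at 0 with replicate 1 or 2 of 0.2 μM or the 0.34 μM library left out. In the same order, 207 of 13957, 183 of 13989 and 178 of 13891 genes tested passed. It was above 0 for this list without DMSO replicate 1, which leaves 1 control library.

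Of 11 regulators of mitotic transcription, 5 passed, all as lower (2.73% of all genes tested did), with a median of -0.94. The list holds the MuvB core with its MYB, FOXM1, E2F and pocket protein partners, which act through the CHR. FOXM1 had a log2 fold change of -2.55, MYBL2 one of -2.99, the largest of the list, and the MuvB subunit LIN9 one of -2.27. E2F4, the E2F of the repressive complex, had 37.7 and 46.9 CPM in DMSO and 40.3, 43.8 and 40.2 after doxorubicin and did not pass (-0.03). Named after their values were seen, the pocket protein RBL1 (-2.24) and the MuvB subunit LIN54 (-1.43) passed as lower. The pocket protein RBL2 did not pass (0.10). The count was 2 with replicate 1 or 2 of 0.2 μM left out and 1 without the 0.34 μM library. In the same order, these fits called 136 of 13957, 146 of 13989 and 140 of 13891 genes tested as lower. With either DMSO library left out, which leaves 1 control library, both the list count and the called falls over all genes were also lower.

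**Figure D4:**
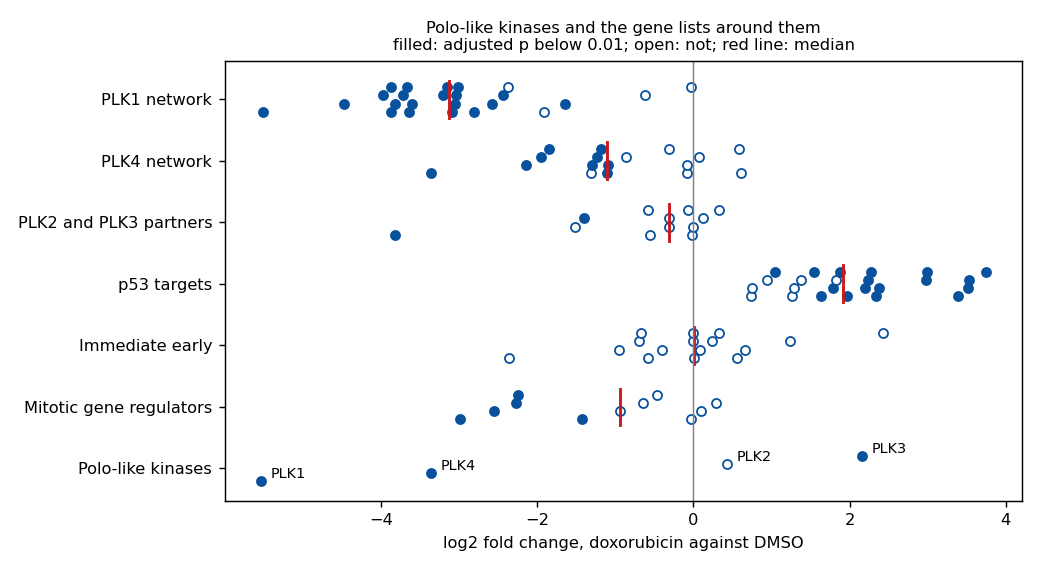
Log2 fold change, doxorubicin against DMSO, of every tested gene of the 6 lists and of the 4 Polo-like kinases. Filled circles passed an adjusted p of 0.01 in edgeR, open circles did not, and red lines are the list medians. PLK1 (-5.53) lies beyond all genes of its network and beside KIF20A (-5.52), PLK4 (-3.36) beside STIL (-3.35), and PLK3 (2.16) among the p53 targets.

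Finally, the genes whose profiles over the 5 libraries were most like each member were listed, by the root mean square difference of log2 CPM centered on the DMSO mean. For PLK1 the closest was KIF20A at 0.23, with 285 and 222 CPM in DMSO and 4.64, 5.70 and 6.23 CPM after doxorubicin. Then came CENPA, MKI67, NEK2 and DLGAP5 at between 0.67 and 0.70, and KIF20A was the only gene of those tested within 0.5. For PLK4 they were STIL (0.12), CLSPN (0.16), CIT (0.16), HMMR (0.17) and UBE2C (0.17), with 81 genes within 0.5. For PLK3 they were CD82 (0.12), PSTPIP2 (0.17), FUCA1 (0.18), GALNT5 (0.18) and WBSCR27 (0.18), with 208 genes within 0.5. GALNT5 was below 1 CPM in every library, and WBSCR27 had 0.458 and 0.431 CPM in DMSO. CD82, a tetraspanin, had 17.4 and 18.8 CPM in DMSO and 69.0, 81.6 and 101 CPM after doxorubicin. The distance takes in the size of the change, and PLK1 had the largest fall of the genes tested. Numbers of genes within 0.5 are therefore not comparable between members.

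For PLK2 the closest were IL15RA (0.05), MMP24-AS1 (0.07), ZNF281 (0.07), LINC01279 (0.07) and KSR1 (0.07), and 5192 genes lay within 0.5. Each of these 5 had its lowest value in DMSO replicate 2, like PLK2, which follows from how they were picked. ZNF281 had 97.2 and 53.7 CPM in DMSO and 109, 88.6 and 111 CPM after doxorubicin. IL15RA was low throughout, between 0.666 and 1.43 CPM. MMP24-AS1 is an antisense gene whose reads may be shared with its partner, since no source names the strand setting of the counting.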

How the data were processed

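Poly-A RNA of RPE1 cells was sequenced by the authors in paired end mode, mapped to hg38 with STAR and counted per gene with Rsubread. The authors deposited raw counts for 5 libraries without normalization, with a strand setting that no source names. A table of the authors' own comparison (fold changes and p-values) was not used. The columns of the count table were matched to the sample titles.

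The counts were analyzed in R 4.3.3 with edgeR 4.0.16 (main test), DESeq2 1.42.0 and limma 3.58.1 (alternatives). The main test was the quasi-likelihood test of 3 pooled doxorubicin against 2 DMSO libraries with TMM normalization (factors 0.975 to 1.04), no covariates and a minimum count of 10. P-values were adjusted by Benjamini-Hochberg over all 14187 genes tested, with a threshold of 0.01. Concentrations were compared as a contrast in a fit of 3 conditions. Standard errors were derived from the size of each log2 fold change and its F statistic. Exon lengths are unions of GENCODE exons lifted to GRCh37, used as lengths only, and 12939 of the genes tested had one. A prior count of 2 was added for log2 CPM. The pipeline was tested on simulated data.

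The members and gene lists were chosen with earlier results of these data known, and the lists come from general knowledge. Genes named are the members, fixed examples, the largest called change in each direction of a list and the 5 nearest profiles. Some of the fixed examples are not reported here. SGO1 was matched by its older symbol. The study calls the libraries biological replicates. The number of libraries, 2 in DMSO, limits the precision. Alternatives were the tool, normalization, filter, threshold, grouping, thinning, libraries left out, a replicate block, exon length and prior count.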

Additional observations from a re-analysis of the deposited data

How the results depend on the processing

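PLK1 kept its direction and its call in all 14 alternatives. PLK3 and PLK4 kept their direction in all 14 and lost their calls when either DMSO library was left out, and PLK2 stayed positive and outside the threshold throughout. With each library left out, log2 fold changes were -5.62 to -5.45 for PLK1, 0.07 to 0.88 for PLK2, 2.06 to 2.22 for PLK3 and -3.67 to -3.09 for PLK4. The number of genes past the threshold was 49 to 215 in these fits, against 571. It was 2026 with DESeq2, 1020 without the filter, 171 for 0.2 μM alone and 89 for 0.34 μM alone (the latter chosen after seeing the data) in the fit of 3 conditions, and 1927 at a threshold of 0.05. Fewer libraries or another threshold alter these counts by construction, and otherwise the cause was not tested.

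List counts with each library left out were 7 to 18 for the PLK1 network, 0 to 2 for the PLK4 network, 0 to 1 for the PLK2 and PLK3 partners, 1 to 14 for the p53 targets, 0 to 1 for the immediate early genes and 0 to 2 for the mitotic gene regulators. For 0.2 μM alone in the fit of 3 conditions, 171 of 14187 genes tested passed. List counts there were 1 for the PLK4 network, 1 for the PLK2 and PLK3 partners, 10 for the p53 targets and 1 for the mitotic gene regulators. The PLK2 and PLK3 partners also gave 1 with library size only (539 of 14187 genes passed) and 1 with thinned counts (586 of 13995). The immediate early genes gave 3 with DESeq2, 2 without the filter and 2 at a threshold of 0.05. Of all genes tested in these settings, 2026 of 14385, 1020 of 20717 and 1927 of 14187 passed.

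The labels number the second replicates of DMSO and 0.2 μM only, so a shared number does not show that libraries were paired. Across genes, the differences between replicates 1 and 2 of the 2 conditions correlated with r = 0.53. With the replicate block on these 4 libraries, 1249 of 13891 genes tested passed, and 2 immediate early genes. The log2 fold changes in this fit were -5.45 for PLK1 and 0.49 for PLK2 (adjusted p = 0.156 from edgeR). They were 2.06 for PLK3 and -3.10 for PLK4, with no call of a member changed. The difference of PLK2 between concentrations, -0.01, became 0.0128 without the filter and was -0.13 to 0.16 with a 0.2 μM library left out. With the longest transcript as the length, the mean log2 ratio of PLK2 to PLK1 was 2.79 in place of 2.26 in DMSO and 8.79 in place of 8.26 after doxorubicin. That of PLK3 to PLK1 in DMSO was -2.52 in place of -2.74, and that of PLK3 to PLK4 in DMSO was -0.43 in place of -0.64.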
